A study of Mus musculus with 18 samples.

Results

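The miR-15/16/195 family was examined as 5 mature microRNAs, mmu-miR-15a-5p, mmu-miR-15b-5p, mmu-miR-16-5p, mmu-miR-195a-5p and mmu-miR-497a-5p (the species prefix is dropped from here on), which were taken by name from the mature miRNA entries of the small RNA count table. They were 5 of 1978 mature miRNAs and of 203513 features in all. Small RNA had been sequenced from microglia, astrocytes and neurons of 10-month-old mice that carried the Atxn2-CAG100-knockin in homozygous form (KIN) and of their wild-type littermates (WT), on a C57BL/6 background. The knockin puts an expanded CAG repeat into the mouse's own Atxn2 gene, as a model of spinocerebellar ataxia type 2, so every cell of the KIN animals carried it, and the labels name no treatment. Whole brains were dissociated, and magnetic beads took microglia by CD11b, then astrocytes by ACSA-2, while the neurons were the cells left unbound after depletion of non-neuronal and CD31-positive cells. Each of the 6 groups held 3 libraries that the labels number as biological replicates. The fractions came in turn from the same brains, so libraries of different fractions were not from separate animals.

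MicroRNAs guide Argonaute proteins to messenger RNAs, which are then destabilised and translated less, and pairing of the seed near the 5′ end of the miRNA decides most of the choice of target. The miR-15/16 family is known for restraining the cell cycle and survival, through cyclins and the cell death inhibitor Bcl2, and its genes lie in clusters from which the members are cut out of shared primary transcripts. In the brain the family has been studied in the exit of neural cells from the cell cycle and in their maturation. The mature sequences are shown because the seed defines the family and because the members are near copies elsewhere, which bears on how reads can be assigned to them. Each is printed 5′ to 3′ with the seed, bases 2 to 8, in capitals, and all were identical in the RefSeq table of the GRCm38.p6 assembly.
miR-15a-5p: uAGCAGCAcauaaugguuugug
miR-15b-5p: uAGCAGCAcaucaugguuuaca
miR-16-5p: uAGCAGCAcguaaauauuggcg
miR-195a-5p: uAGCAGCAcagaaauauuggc
miR-497a-5p: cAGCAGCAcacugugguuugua
miR-322-5p: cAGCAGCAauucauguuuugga
miR-503-5p: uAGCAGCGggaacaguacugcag

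The last entries are relatives outside the family as counted here. miR-322-5p has the same seed, whereas miR-503-5p, from the same cluster as miR-322, differs from miR-15a-5p at the last seed base (A8G, counted from the 5′ end). Of the 1978 mature miRNAs, 11 had the seed AGCAGCA. Besides the 5 members and miR-322-5p these were miR-195b, miR-1907, miR-6342, miR-6353 and miR-6419, each with 0 counts in all 18 libraries, where a count of 0 allows a level of up to 0.695 to 2.48 counts per 1000000 depending on the library. miR-16-5p and miR-195a-5p differed at 2 of 21 positions, and miR-15a-5p and miR-15b-5p at 4 of 22. miR-497a-5p differed from miR-16-5p at 11 positions. Reads had been aligned locally and counted without a limit on mapping quality, and how far reads moved between miR-16-5p and miR-195a-5p was not tested.

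In the GRCm39 annotation the members came from 3 clusters. On the minus strand of chromosome 14, miR-15a-5p (chr14:61869524-61869545) lay in an exon and miR-16-5p of the Mir16-1 hairpin (chr14:61869385-61869406) in an intron of the long noncoding RNA Dleu2, with 54 bases between the hairpins. On the plus strand of chromosome 3, miR-15b-5p (chr3:68917108-68917129) and a second copy of miR-16-5p from Mir16-2 (chr3:68917251-68917272) lay in an intron of Smc4, a condensin subunit, with 66 bases between the hairpins. miR-497a-5p (chr11:70125556-70125577) and miR-195a-5p (chr11:70125888-70125908) lay on the plus strand of chromosome 11, with 241 bases between their hairpins and no other gene than miRNA genes overlapping them. The count of miR-16-5p therefore joined the output of 2 loci.

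The libraries held 1211118 to 4316748 counts, of which mature miRNAs were 5.05% to 10.35% in astrocytes and microglia but 0.96% to 2.13% in neurons. Fraction labels were checked with lists of cell type miRNAs, summed per library in counts per 1000000 counts of the library (CPM). The 4 microglia and myeloid miRNAs summed to 8742 to 18987 CPM in microglia, 21.3 to 75.0 in astrocytes and 121 to 523 in neurons. The 5 neuron miRNAs, by contrast, summed to 54.5 to 244 CPM in neurons and 1078 to 3265 in astrocytes, so the neuron fraction was not enriched for them. The astrocyte fraction also held the 3 oligodendrocyte miRNAs at 1770 to 5112 CPM. The paper studied KIN and WT pairs of both sexes, and which library came from which sex is not given here. Counts of Xist were 4 or 5 in replicate 1 of KIN in each fraction and 12 to 102 in the other 15 libraries. Calls of members without these KIN libraries are given for KIN against WT and, as numbers, between fractions, but not for shares or levels per mature miRNA count.

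In CPM the family was most abundant in microglia and least abundant in neurons, whereas as a share of mature miRNA counts, given further on, it was least abundant in astrocytes. Summed over the 5 members, the level was 5024 ± 527 CPM in WT and 7056 ± 1407 in KIN microglia (mean ± SD, n = 3 in every group). In astrocytes it was 2202 ± 731 in WT and 4352 ± 659 in KIN, and in neurons 793 ± 227 and 871 ± 258. In bulk fractions such as these, fewer cells of a type and less RNA per cell cannot be told apart. miR-16-5p made up most of the family in every group, from 74.2% ± 1.52 of the summed counts in WT astrocytes to 82.8% ± 3.86 in WT neurons. By mean CPM it ranked 2 among all mature miRNAs in microglia of both genotypes, 8 and 7 in WT and KIN astrocytes, and 4 and 6 in WT and KIN neurons. The 5p arm, which is the guide strand listed here, held 97.4% of the reads of the 2 arms for miR-15b and 99.5% to 99.9% for the other members.

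**Figure D1:**
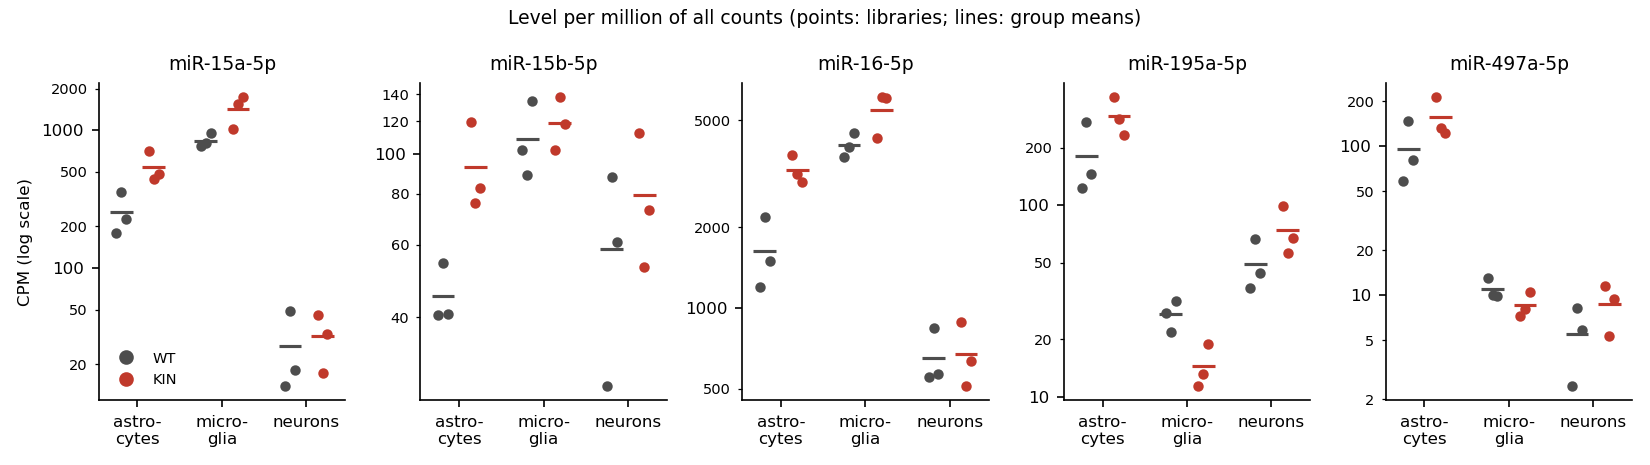
Level of each family member in CPM on a log axis, by cell fraction, with grey points for WT and red points for KIN libraries and lines for group means (n = 3). On this scale miR-15a-5p and miR-16-5p are highest in microglia and lowest in neurons, whereas miR-195a-5p and miR-497a-5p are highest in astrocytes; per mature miRNA count, miR-16-5p is lowest in astrocytes and miR-195a-5p highest in neurons.

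In CPM the members fell into 3 patterns across fractions. Mean levels of miR-15a-5p ran in the order KIN microglia (1428 ± 370 CPM), WT microglia (836 ± 96.7), KIN astrocytes (543 ± 140), WT astrocytes (253 ± 91.7), KIN neurons (32.0 ± 14.2) and WT neurons (27.0 ± 18.8), and only the neuron groups overlapped. miR-16-5p had the same order, at 5486 ± 1028, 4042 ± 412, 3267 ± 390, 1627 ± 506, 676 ± 189 and 652 ± 164 CPM, with overlap between KIN and WT microglia, between WT microglia and KIN astrocytes and between the neuron groups. miR-15b-5p, although it shares the seed and nearly the whole sequence of miR-15a-5p, ranged only from 45.1 ± 7.93 CPM in WT astrocytes to 119 ± 17.6 in KIN microglia, and each group overlapped the next in order.

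The chromosome 11 members had another order in CPM, with astrocytes at the top. miR-195a-5p was at 294 ± 67.6 CPM in KIN and 181 ± 80.5 in WT astrocytes, at 74.4 ± 22.4 and 49.5 ± 15.5 in KIN and WT neurons, and at 27.0 ± 4.89 and 14.5 ± 3.88 in WT and KIN microglia. KIN and WT overlapped in astrocytes and in neurons, and every step between fractions was free of overlap. miR-497a-5p was at 156 ± 49.1 CPM in KIN and 95.2 ± 46.2 in WT astrocytes, and at 5.52 to 11.0 in the microglia and neuron groups, each of which overlapped the next in order.

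Ratios between members taken within a library do not depend on its depth. miR-15a-5p was counted 5.51 ± 1.07 times as often as miR-15b-5p in WT astrocytes and 7.83 ± 1.05 times in WT microglia, but 0.456 ± 0.136 times in WT neurons. The KIN libraries gave 5.85 ± 0.0316, 11.9 ± 2.42 and 0.394 ± 0.0639 in the same order of fractions. In neurons miR-15b-5p thus exceeded its chromosome 14 counterpart, in all 6 libraries. miR-195a-5p, whose hairpin neighbours that of miR-497a, was counted 1.93 ± 0.167 times as often as miR-497a-5p in WT astrocytes, 2.50 ± 0.625 times in WT microglia and 10.2 ± 4.13 times in WT neurons, the last on 3 to 16 counts of miR-497a-5p per library.

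Between WT microglia and WT astrocytes all 5 members were called, against 31.5% of all features tested and 242 of the 418 mature miRNAs tested. A call required a Benjamini-Hochberg adjusted p of at most 0.05 and a log2 fold change of at least 1 in size in edgeR's quasi-likelihood test. In microglia miR-15a-5p was 3.53-fold higher (log2 fold change 1.82, SE 0.29, adjusted p = 0.000957), miR-16-5p 2.67-fold higher (1.42, SE 0.26, adjusted p = 0.00208) and miR-15b-5p 2.56-fold higher (1.35, SE 0.27, adjusted p = 0.00319). The chromosome 11 members went the other way. miR-195a-5p was 6.37-fold lower in microglia than in astrocytes (log2 fold change -2.67, SE 0.35, adjusted p = 0.00026) and miR-497a-5p 8.20-fold lower (-3.04, SE 0.41, adjusted p = 0.000293). The median over all mature miRNAs tested was -0.28. In KIN, 3 members were called against 35.3% of features and 265 of the 447 mature miRNAs tested. These members were miR-15a-5p at 1.53 (SE 0.21), miR-195a-5p at -4.20 (SE 0.25) and miR-497a-5p at -4.02 (SE 0.27). miR-16-5p differed by 0.88 (SE 0.16, adjusted p = 0.000866), under the fold required, and miR-15b-5p by 0.51 (95% interval 0.06 to 0.95, adjusted p = 0.0645). With scaling on mature miRNAs miR-16-5p was called higher in KIN microglia as well (1.21, edgeR adjusted p = 0.00116), and miR-15b-5p was at 0.85 (edgeR adjusted p = 0.0175), still under the fold required.

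**Figure D2:**
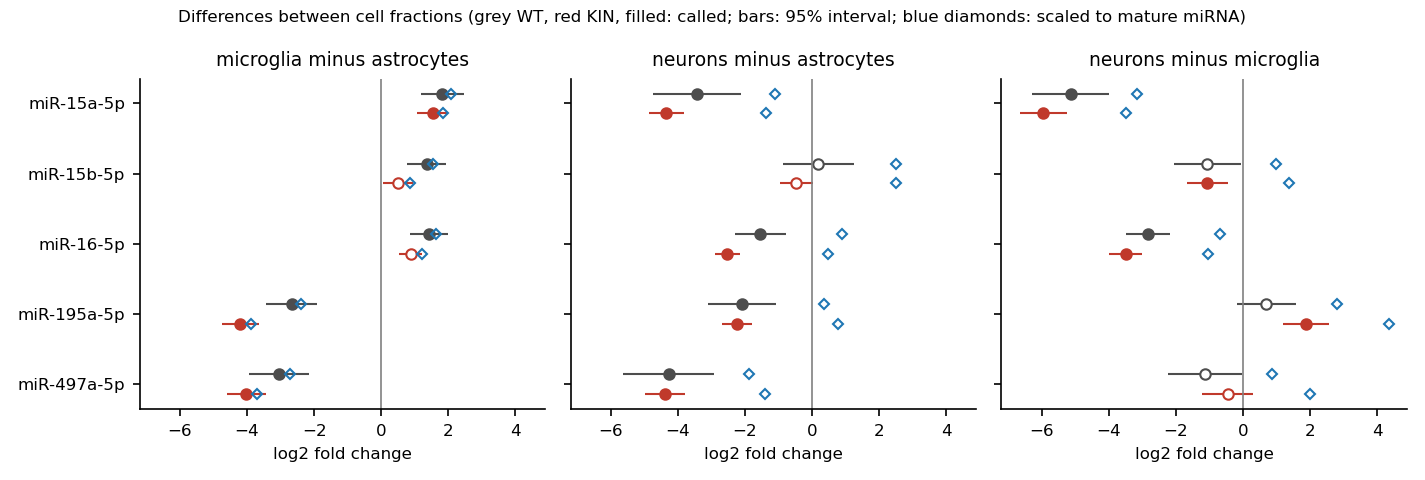
Log2 fold change of each member between cell fractions within WT and within KIN, with bars for 95% intervals, grey for WT and red for KIN. Filled points are calls, blue diamonds are the values with scaling on mature miRNAs, which move to the right in both comparisons with neurons, and the split between the chromosome 11 members and the others is largest for microglia against astrocytes.

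Between neurons and astrocytes, 4 members were called in WT against 28.7% of features, and 4 in KIN against 46.3%, and all of these were lower in neurons on the scale of all counts. Of the mature miRNAs tested, 219 of 362 were called in WT and 345 of 397 in KIN, 212 and 330 of them lower in neurons. In WT the log2 fold changes were -3.42 (SE 0.57) for miR-15a-5p, -1.54 (SE 0.34) for miR-16-5p, -2.09 (SE 0.45) for miR-195a-5p and -4.28 (SE 0.59) for miR-497a-5p, with adjusted p from 0.00231 to 0.0121. miR-15b-5p was not called, at 0.18 in WT (95% interval -0.88 to 1.24) and -0.48 in KIN (-0.96 to 0.01). In KIN the called members were at -4.34 (miR-15a-5p), -2.53 (miR-16-5p), -2.24 (miR-195a-5p) and -4.39 (miR-497a-5p). Most mature miRNAs were lower in neurons on this scale, with a median of -2.66 over those tested in WT and -3.43 in KIN. With scaling factors taken from mature miRNAs alone, which moved the median of all features by 2.29 in WT and 2.99 in KIN, the difference of miR-16-5p turned to 0.90 and 0.47 and that of miR-195a-5p to 0.36 and 0.76, and none of these was called. miR-15b-5p was then called higher in neurons, at 2.51 in both genotypes (edgeR adjusted p = 6.15e-05 in WT). miR-497a-5p was still called lower, at -1.87 in WT and -1.39 in KIN. miR-15a-5p was called lower in KIN, at -1.36, but its call in WT was lost (-1.11, edgeR adjusted p = 0.0702).

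Between neurons and microglia, 2 members were called in WT against 28.0% of features and 218 of the 343 mature miRNAs tested. miR-15a-5p was 35.2-fold lower in neurons (log2 fold change -5.14, SE 0.52, adjusted p = 0.000371) and miR-16-5p 7.10-fold lower (-2.83, SE 0.29, adjusted p = 0.000427). In KIN 4 members were called against 53.0% of features and 303 of the 360 mature miRNAs tested. These members were miR-15a-5p at -5.96 (SE 0.34), miR-16-5p at -3.49 (SE 0.24), miR-15b-5p at -1.06 (SE 0.30) and, in the other direction, miR-195a-5p at 1.88 (SE 0.33). miR-497a-5p was not called in either genotype, at -1.13 (95% interval -2.23 to -0.03) in WT and -0.46 (-1.21 to 0.29) in KIN. Scaling on mature miRNAs left miR-15a-5p called lower in neurons, at -3.16 in WT and -3.49 in KIN. The call of miR-16-5p in WT was lost under it (log2 fold change -0.68, edgeR adjusted p = 0.179), whereas in KIN it was at -1.03 and still called. miR-195a-5p was then called higher in WT neurons too (2.80, edgeR adjusted p = 0.000174), and was at 4.34 in KIN. miR-15b-5p turned to 0.99 in WT, not called, and to 1.38 in KIN, where it was called in the opposite direction, and miR-497a-5p in KIN was called at 2.01.

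The main question of the design was what the knockin did within each fraction. In astrocytes 3 of the 5 members were called, all higher in KIN, against 8.18% of all features tested and 56 of the 418 mature miRNAs tested. miR-16-5p was at 1196, 2184 and 1502 CPM in the WT astrocyte libraries and at 3701, 3152 and 2946 in the KIN libraries. All KIN libraries were above all WT libraries, and WT replicate 2 was the highest of its group for every member. The fitted difference was 2.17-fold (log2 fold change 1.12, SE 0.21, edgeR adjusted p = 0.0142).

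miR-15a-5p and miR-15b-5p, from different chromosomes, rose by similar factors. miR-15a-5p was at 178, 355 and 226 CPM in WT and at 703, 443 and 483 in KIN astrocytes. The groups did not overlap, and KIN replicate 1 was well above the other KIN libraries. The difference was 2.31-fold (log2 fold change 1.21, SE 0.26, edgeR adjusted p = 0.0222). miR-15b-5p was at 40.4, 54.3 and 40.7 CPM in WT and at 120, 76.1 and 82.8 in KIN astrocytes, again with no overlap. It was 2.23-fold higher (log2 fold change 1.16, SE 0.23, edgeR adjusted p = 0.0167).

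The chromosome 11 members were not called in astrocytes. miR-195a-5p was at 124, 273 and 146 CPM in WT and at 366, 284 and 232 in KIN. WT replicate 2 lay within the KIN range. The log2 difference was 0.81 (95% interval 0.16 to 1.46, edgeR adjusted p = 0.0885). miR-497a-5p, at 58.2, 147 and 80.5 CPM in WT and 212, 132 and 123 in KIN, overlapped in the same way and differed by 0.81 (95% interval 0.07 to 1.56, edgeR adjusted p = 0.119). The 3 members without overlap compare with 36.7% of all features tested whose astrocyte groups did not overlap in CPM.

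**Figure D3:**
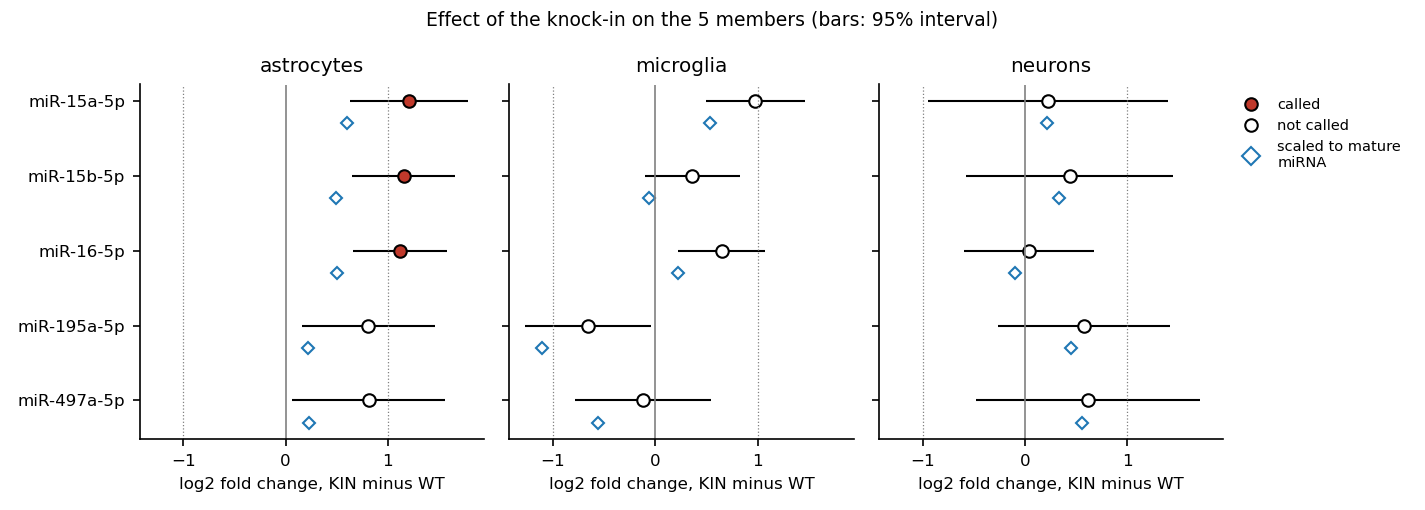
Log2 fold change of KIN against WT for each member in each fraction, with bars for 95% intervals, filled points for calls and blue diamonds for the values with scaling on mature miRNAs. Only miR-15a-5p, miR-15b-5p and miR-16-5p in astrocytes are called, and the intervals in neurons all span 0.

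The astrocyte calls rested on the full set of libraries and on the scale. The median log2 fold change was 1.12 over the 5 members, 0.58 over the mature miRNAs tested and -0.19 over all features, and scaling on mature miRNAs moved the median of all features by -0.68. Under that scaling the members were at 0.60, 0.49, 0.50, 0.22 and 0.23 (miR-15a, miR-15b, miR-16, miR-195a, miR-497a), and none was called by edgeR. All 3 calls were also lost without WT replicate 1 or 3, or without any 1 KIN library, although the log2 fold changes stayed between 0.89 and 1.32 and the number of calls over all features was 41 to 78 in place of 466. Without WT replicate 2, all 5 members were called, with log2 fold changes from 1.26 to 1.55. The summed oligodendrocyte miRNAs moved with the members, at 1770 to 3035 CPM in the WT and 3351 to 5112 in the KIN astrocyte libraries. So did the summed microglia and myeloid miRNAs, at 21.3 to 34.9 and 44.1 to 75.0 CPM. Within these lists miR-338-3p, miR-142a-5p and miR-146a-5p overlapped between genotypes. The summed astrocyte and neural lineage miRNAs, at 6345 to 10186 and 7438 to 7971 CPM, overlapped, as did the neuron, endothelial, mural and erythroid sums. The part of cells of these types in the members' rise was not tested.

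In microglia no member was called by edgeR or DESeq2, against 4.35% of all features, and 3 members had an unadjusted edgeR p under 0.05, as had 1250 of the 4940 features tested. miR-15a-5p was at 761, 802 and 945 CPM in WT and at 1013, 1546 and 1724 in KIN. The groups did not overlap. The difference of 1.97-fold passed the p threshold but not the fold required (log2 fold change 0.98, SE 0.21, edgeR adjusted p = 0.0380), and without WT replicate 2 or KIN replicate 1 it was called, at 1.05 and 1.10. Leaving these out gave 940 and 314 calls over all features in place of 215. Without any other library miR-15a-5p was not called, and 0 to 12 features were called in all.

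miR-195a-5p took the opposite direction in microglia. It was at 27.4, 21.9 and 31.6 CPM in WT and at 11.4, 13.2 and 18.9 in KIN, from 36 to 116 counts per library. All KIN libraries were below all WT libraries, yet the log2 fold change of -0.66 did not pass (95% interval -1.27 to -0.05, edgeR adjusted p = 0.168). With scaling on mature miRNAs it was at -1.11 and passed (edgeR adjusted p = 0.0376), as the 1 member called under that scaling.

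miR-16-5p in microglia was at 3661, 3984 and 4479 CPM in WT and 4299, 6086 and 6072 in KIN, with KIN replicate 1 inside the WT range. Its log2 difference was 0.65 (95% interval 0.23 to 1.07, edgeR adjusted p = 0.0779). miR-15b-5p, at 89.0 to 134 CPM in WT and 102 to 137 in KIN, differed by 0.36 (-0.10 to 0.82), and miR-497a-5p, at 9.82 to 13.0 and 7.31 to 10.5 CPM, by -0.12 (-0.78 to 0.55). The 2 members without overlap compare with 26.6% of all features in microglia. The microglia and myeloid miRNAs summed to 8742 to 9880 CPM in the WT and 12371 to 18987 in the KIN microglia libraries. Of this list only miR-146a-5p was free of overlap (5883 to 6492 CPM in WT, 9274 to 13072 in KIN). miR-142a-3p, miR-142a-5p and miR-223-3p overlapped. The neuron miRNAs were at 66.2 to 171 CPM in the WT and 53.4 to 61.2 in the KIN libraries. The mural miRNAs, at 146 to 206 and 60.0 to 137 CPM, were lower in every KIN library as well, and the erythroid miRNAs, at 17.3 to 22.2 and 28.6 to 131, were higher. The astrocyte and neural lineage miRNAs summed to 271 to 386 CPM in WT and 234 to 341 in KIN microglia, with overlap. Of these, miR-9-5p was at 74.0 to 218 and 52.7 to 62.1 CPM and miR-9-3p at 8.35 to 26.7 and 5.59 to 6.49, both lower in KIN. miR-204-5p, at 131 to 188 and 165 to 282 CPM, overlapped. Their part in the members' values was not tested.

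In neurons no member was called by edgeR or DESeq2 and none had an unadjusted p under 0.05, with 0% of all features called and 197 of 4535 at an unadjusted edgeR p under 0.05. miR-16-5p was at 551, 841 and 565 CPM in WT and at 883, 513 and 632 in KIN neurons. The groups interleaved. Its log2 difference was 0.04 (95% interval -0.59 to 0.68). miR-15a-5p was at 14.0, 48.6 and 18.3 CPM in WT and 45.7, 17.3 and 33.0 in KIN, and differed by 0.22 (-0.95 to 1.40). The other intervals were -0.57 to 1.44 for miR-15b-5p, -0.26 to 1.42 for miR-195a-5p and -0.48 to 1.71 for miR-497a-5p. No member was free of overlap in CPM, against 10.3% of all features, and WT replicate 2 and KIN replicate 1 had the highest level of each member in their groups. Without KIN replicate 1 no member was called either, with miR-15a-5p at -0.10 and miR-16-5p at -0.17. Leaving out the KIN replicate 1 libraries also left the number of members called between fractions in KIN at 3, 4 and 4.

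Because mature miRNAs took different shares of the libraries, the members were also expressed per 1000000 mature miRNA counts. On this scale the family made up 9.27% ± 0.416 of mature miRNA counts in WT and 9.33% ± 0.154 in KIN microglia, 6.14% ± 0.600 and 5.12% ± 0.279 in neurons, and 3.36% ± 0.244 and 4.67% ± 0.237 in astrocytes. The astrocyte libraries did not overlap between genotypes, nor did the neuron libraries, where KIN was lower. The neuron groups nearly met, at 5.45% in the lowest WT and 5.41% in the highest KIN library. In astrocytes the same 3 members as in CPM lay higher in KIN without overlap, against 36.8% of the mature miRNAs tested. miR-16-5p, for example, was at 23680, 26296 and 24665 in WT and 35770, 34528 and 34950 in KIN astrocytes. In microglia miR-15a-5p lay higher, and miR-15b-5p, miR-195a-5p and miR-497a-5p lower, without overlap, against 45.8%. The miR-15b-5p groups nearly met, with the highest KIN library at 1745 and the lowest WT library at 1749. In neurons miR-16-5p lay lower and miR-195a-5p higher, against 19.8%.

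**Figure D4:**
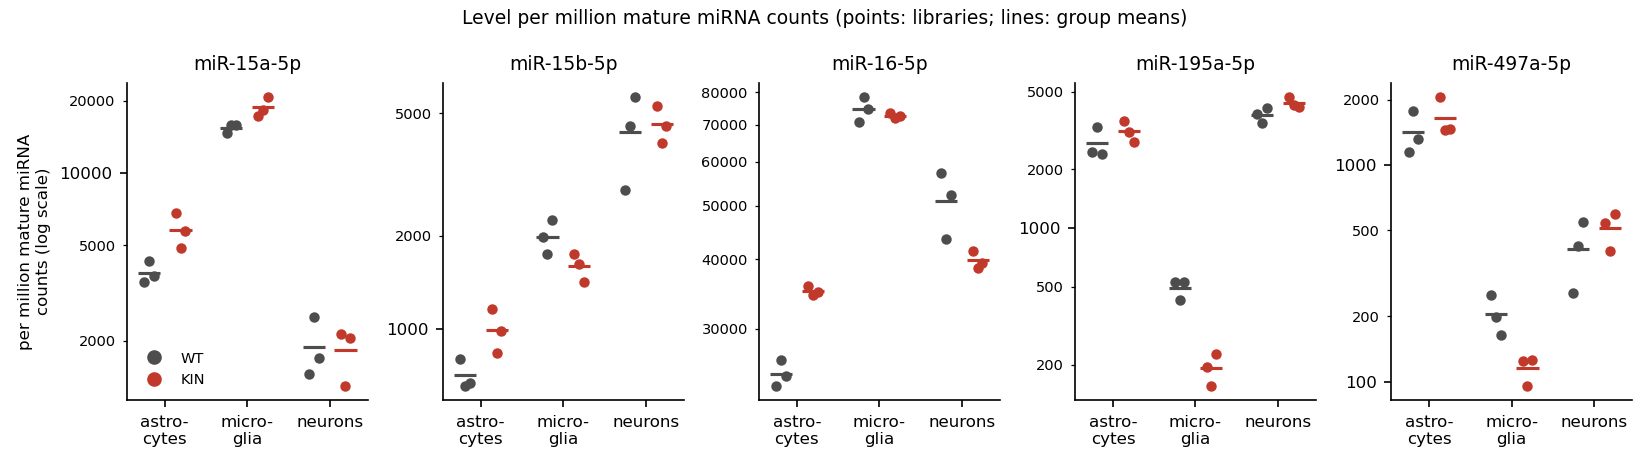
Level of each member per 1000000 mature miRNA counts on a log axis, by fraction, with grey points for WT and red points for KIN libraries and lines for group means (n = 3). On this scale miR-15b-5p and miR-195a-5p have their highest levels in neurons, while miR-15a-5p keeps its lowest there.

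The shares of the members within the family sum need no scaling between libraries. miR-15a-5p was 16.6% ± 0.267 of the family in WT and 20.1% ± 1.54 in KIN microglia, without overlap, and 11.4% ± 0.327 and 12.4% ± 1.47 in astrocytes, with overlap. In neurons it was 3.16% ± 1.28 and 3.56% ± 0.767. miR-195a-5p was lower in KIN than in every WT library in astrocytes (8.05% ± 0.902 in WT, 6.72% ± 0.621 in KIN) and in microglia (0.537% ± 0.0805, 0.206% ± 0.0342), and higher in neurons (6.22% ± 0.291, 8.54% ± 0.256). miR-16-5p was lower without overlap in KIN microglia, at 80.5% ± 0.642 against 77.9% ± 1.36, and in KIN neurons, at 82.8% ± 3.86 against 77.9% ± 1.47. These shares sum to 100%, so a rise of 1 member lowers the others, and no test was applied to them.

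**Figure D5:**
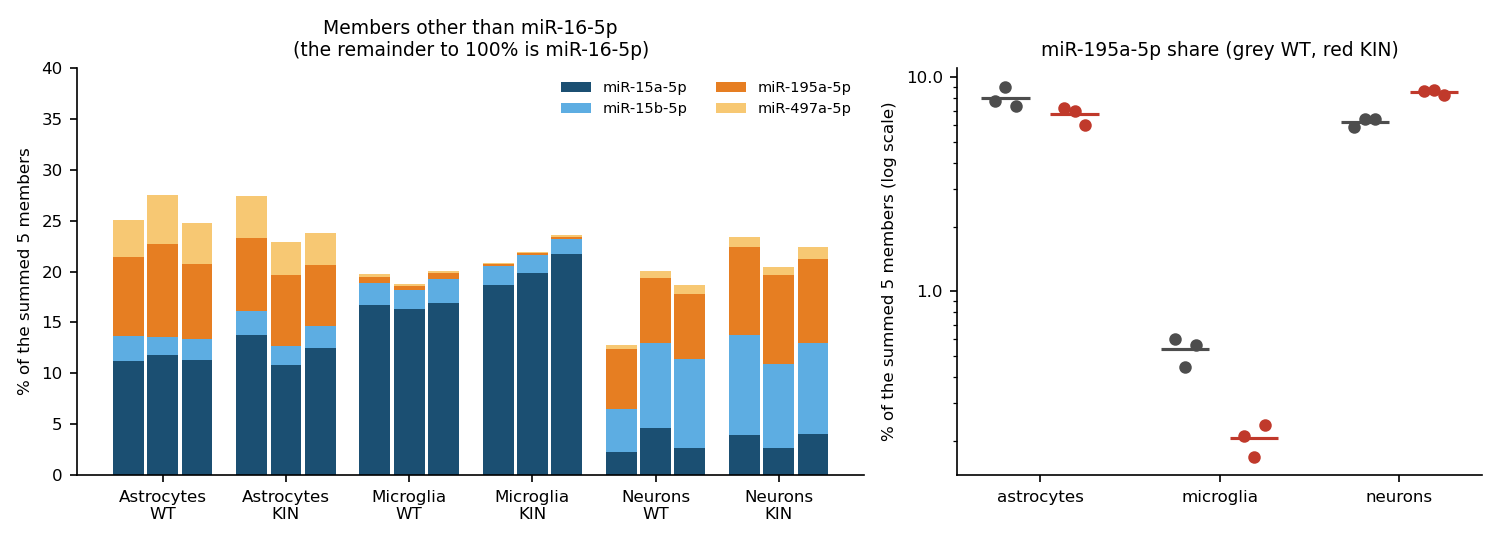
Left, share of the 4 members other than miR-16-5p in the summed counts of the family, in percent, stacked with 1 bar per library; right, the share of miR-195a-5p on a log axis, with points for libraries and lines for group means (grey WT, red KIN). Blue miR-15a-5p fills most of the microglia bars, miR-15b-5p and miR-195a-5p most of the neuron bars, and the KIN points of miR-195a-5p lie below WT in astrocytes and microglia and above WT in neurons.

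Whether the KIN difference itself differed between fractions was tested with an interaction term. No member was called by edgeR or DESeq2 in any of the 3 tests, against 0.312% of features for microglia against astrocytes, 0% for neurons against astrocytes and 0.639% for neurons against microglia. At an unadjusted edgeR p under 0.05, features numbered 732, 598 and 717. Those among the members were miR-195a-5p and miR-15b-5p for microglia against astrocytes, at -1.46 (SE 0.43, adjusted p = 0.151) and -0.79 (SE 0.33, adjusted p = 0.395), and miR-16-5p for neurons against astrocytes, at -1.16 (SE 0.41, adjusted p = 0.566). Without WT astrocyte replicate 2, miR-195a-5p and miR-497a-5p were called for microglia against astrocytes. The called rise in astrocytes was therefore not shown to be particular to them.

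Among relatives of the family, miR-322-5p and miR-503-5p, which are made from 1 cluster on the X chromosome within the Mir503hg transcript, were most abundant in microglia. miR-322-5p was at 125, 127 and 169 CPM in WT and 95.3, 146 and 192 in KIN microglia, at 5.09 to 31.1 in the astrocyte libraries and at 0.412 to 4.09 in the neuron libraries, the last from 1 to 8 counts. It was called higher in microglia than in astrocytes in both genotypes (log2 fold change 3.99, SE 0.38 in WT and 2.99, SE 0.32 in KIN), as was miR-503-5p (4.61, SE 0.46 and 3.46, SE 0.36). In astrocytes their KIN differences of 1.20 (edgeR adjusted p = 0.0814) and 1.26 (adjusted p = 0.129) were as large as those of the family but were not called.

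The passenger arms and the hairpins were read as further products of the same loci. Of 8 opposite arms, 3 could be tested in astrocytes, and miR-322-3p was called higher in KIN (1.91, 1.76 and 1.21 CPM in WT, 3.78, 4.74 and 3.76 in KIN, log2 fold change 1.44, SE 0.40, edgeR adjusted p = 0.0463). The opposite arms of miR-195a and miR-497a had 0 to 4 counts per library. Of 9 hairpins tested, 4 were called higher in KIN astrocytes, namely Mir15a at 1.33, Mir16-2 at 1.22, Mir15b at 1.14 and Mir16-1 at 1.12, against 8.18% of all features. With scaling on mature miRNAs 0 of the hairpins and 0 of the opposite arms were called in astrocytes. With 1 astrocyte library left out, 8 hairpins were called without WT replicate 2, and 0 to 3 without any other library, and 1 opposite arm was called without WT replicate 2 and 0 without any other library. Mir15a was also called in KIN microglia (1.14, SE 0.23, edgeR adjusted p = 0.0303), at 172, 161 and 197 CPM in WT and 222, 370 and 418 in KIN. No hairpin was called higher in KIN microglia with scaling on mature miRNAs, with library totals, with the replicate number as a block, or without WT replicate 1 or 3 or KIN replicate 2 or 3. Between WT microglia and WT astrocytes all 9 hairpins tested were called, 6 higher and 3 lower in microglia, against 31.5% of all features, and these counts were the same with scaling on mature miRNAs and with any 1 library left out. The hairpin entries collect reads left over from the alignment to mature miRNAs, so they are no independent measure of the members. Mir16-1 and Mir16-2, which both hold the sequence of miR-16-5p, had nearly equal levels in every library, so their calls may not be separate results. Mir497 and Mir497b, which share 84 bases on opposite strands, could not be told apart by counting without strand.

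The host transcripts were barely covered in these small RNA libraries. Dleu2, the host of miR-15a and miR-16-1, was at 8.64, 5.76 and 5.18 CPM in WT and 2.22, 3.01 and 1.86 in KIN microglia, summed over its transcripts. These levels rested on 7 to 30 counts per library. All KIN libraries were below the WT libraries, where 26.6% of all features tested had no overlap in either direction. The 1 transcript that could be tested was not called (log2 fold change -1.01, SE 0.45, edgeR adjusted p = 0.197). In neurons Dleu2 was lower in KIN too, at 4.69 to 7.01 CPM against 7.16 to 9.91 in WT, where 10.3% of features had no overlap. The astrocyte groups, at 1.07 to 3.78 and 2.51 to 5.09 CPM, overlapped. Smc4, the host of miR-15b and miR-16-2, was at 0 to 1.09 CPM in astrocytes and microglia and at 2.62 to 14.0 in neurons. In KIN both Smc4 transcripts tested were called higher in neurons than in the other fractions (log2 fold change 3.49 to 5.62), and Dleu2 higher than in astrocytes (1.49, SE 0.53). Smc4, summed over its transcripts, had 0 to 2 counts per library in KIN astrocytes and microglia and 14 to 25 in KIN neurons. Its entries could thus pass the count filter only through the neuron libraries, which fixed the direction of these calls beforehand. The described targets of the family, 20 genes of the cell cycle, survival and signalling with 155 transcript entries, gave 7, 4 and 8 testable entries for KIN against WT in astrocytes, microglia and neurons. None was called, with adjusted p from 0.258 upwards in edgeR. Ccnd2, which encodes a cyclin that drives entry into the cell cycle, was at 17.9 to 45.4 CPM in neurons and 0.233 to 2.33 in the other fractions, and was called higher in neurons in each of the 4 comparisons with them (log2 fold change 3.51 to 5.54). Summed over transcripts it had 35 to 70 counts per library in neurons and 1 to 8 elsewhere, so it passed the count filter mainly through neurons. In KIN, 4 of 9 target entries were called higher in neurons than in astrocytes and 5 of 8 higher than in microglia, and none lower, against 46.3% and 53.0% of all features called in either direction. They were entries of Ccnd2, of App, the amyloid precursor, with several transcripts of that 1 gene, and, against astrocytes, of Bcl2 at 1.58 (SE 0.62). App, summed over transcripts, had 6 to 19 counts per library in KIN astrocytes and microglia and 30 to 49 in KIN neurons. With so few counts, the filter favoured entries high in neurons, so the lack of lower calls is no result about the targets. Fragments of messenger RNA in a small RNA library do not measure its level, and library preparation selected short RNA.

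Other miRNAs followed the members closely over the 18 libraries. Among 169 mature miRNAs with a mean of at least 10 CPM, Pearson's correlation of log2(CPM + 1) with the family sum was highest for miR-32-5p (0.986), miR-191-5p (0.986) and miR-140-3p (0.984). The nearest single miRNA was miR-29a-3p for miR-15a-5p (0.990), miR-191-5p for miR-16-5p (0.989), miR-106b-5p for miR-15b-5p (0.952), miR-100-5p for miR-195a-5p (0.967) and miR-125b-5p for miR-497a-5p (0.987). Within the family the correlation was 0.988 between miR-15a-5p and miR-16-5p and 0.838 between miR-195a-5p and miR-497a-5p, but 0.615 between miR-15a-5p and miR-15b-5p and -0.165 between miR-15a-5p and miR-195a-5p. These values are descriptions, since the points share fractions, libraries and depth.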

How the data were processed

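The authors trimmed reads with Cutadapt 4.6, aligned them with Bowtie2 2.4.4 in local mode in successive rounds (mature miRNA, tRNA, piRNA, Ensembl noncoding RNA and cDNA, mm39), and counted features with HTSeq 2.0.2 without strand; library adapters carried unique molecular identifiers, and whether they were collapsed is not given in the sources used here. Their deposited raw counts were used. Normalised per-library columns (36), pooled columns (18) and the authors' comparison columns with fold changes and p-values (15) were not used.

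Testing covered features that reached 5 counts in 2 or more libraries of a comparison, and was done with edgeR 4.0.16 (quasi-likelihood, TMM on library totals, R 4.3.3), with Benjamini-Hochberg adjustment over all features. A call needed both an adjusted p no higher than 0.05 and a change of 1 or more, in size, on the log2 scale, the limits of the study. DESeq2 1.42.0 was an alternative. CPM are counts per 1000000 counts of the library. Steps were tested on simulated data. Intervals are at 95% and cover the spread between libraries.

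Members, lists and tests were chosen with earlier results of these data known. All 5 members were named in every comparison; listed relatives, arms, hairpins, hosts and targets were named where at least 5 counts in at least 2 libraries of a fraction or a call allowed, and the nearest miRNAs by highest correlation. The host genes Mir497hg and Mir503hg found no entry by name. Replicate numbers were checked for pairing by correlating deviations from group means: for KIN against WT the 3 own-number correlations were 0.008 to 0.075 in astrocytes, -0.237 to 0.188 in microglia and -0.284 to -0.037 in neurons, so the numbers were not taken to pair samples there. Between fractions of WT they were 0.043 to 0.346 for microglia and astrocytes, 0.106 to 0.313 for neurons and astrocytes and 0.009 to 0.251 for neurons and microglia. In KIN they were -0.258 to -0.048, -0.058 to 0.17 and -0.108 to 0.108. The labels do not say that a number marks 1 brain. Libraries of different fractions shared animals, yet fits between fractions and of the interaction treated them as independent, apart from the alternative with the replicate number as a block.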

Additional observations from a re-analysis of the deposited data

Results flagged for a closer look

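Some members had every KIN library on one side of every WT library in one fraction and on the other side in another fraction. No test was run on the shares or directly on the levels per 1000000 mature miRNA counts. As a share of the family sum, the mean of miR-195a-5p in KIN minus that in WT was -1.33 percentage points in astrocytes and -0.331 in microglia, but 2.33 in neurons. Per 1000000 mature miRNA counts, the mean of miR-195a-5p differed by -303 in microglia (496 in WT, 192 in KIN) and by 557 in neurons (3812 and 4369). On the same scale miR-15b-5p differed by 283 in astrocytes and by -396 in microglia. In microglia its highest KIN library was at 1745 and its lowest WT library at 1749, and edgeR scaled on mature miRNAs gave a log2 fold change of -0.06 (SE 0.22). miR-16-5p differed by 10202 in astrocytes (24880 in WT, 35082 in KIN) and by -11144 in neurons (50969 and 39825). On the edgeR scale of all counts, the interaction terms that correspond to these pairs were not called, with -0.32 (95% interval -1.41 to 0.78) for miR-195a-5p in neurons against astrocytes, which has the opposite sign to the difference in shares, 1.05 (-0.03 to 2.14) for miR-195a-5p in neurons against microglia, -0.79 (-1.48 to -0.09) for miR-15b-5p in microglia against astrocytes and -1.16 (-2.02 to -0.31) for miR-16-5p in neurons against astrocytes. With edgeR scaled on mature miRNAs these terms were not called either. They were 0.41 (SE 0.49, adjusted p = 0.691) for miR-195a-5p in neurons against astrocytes and 1.76 (SE 0.49, adjusted p = 0.0702) in neurons against microglia. miR-15b-5p was at -0.56 (SE 0.38, adjusted p = 0.800) in microglia against astrocytes. miR-16-5p was at -0.42 (SE 0.45, adjusted p = 0.658) in neurons against astrocytes. Such opposite sides needed 3 libraries against 3 in each fraction, and 19.8% to 45.8% of mature miRNAs had no overlap within a single fraction.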

How the results depend on the processing

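Of 870 alternative values of the members' log2 fold changes, 785 kept direction and side of the thresholds, 28 lost and 13 gained a call, and 44 changed sign; where no value is named, the cause was not tested. With TMM factors from mature miRNA alone, 0 members were called for KIN against WT in astrocytes, 1 in microglia, and 2 for neurons against astrocytes in WT, miR-497a-5p and, newly and in the other direction, miR-15b-5p. Calls also went or came for miR-16-5p (lost) and miR-195a-5p (gained) in WT neurons against microglia, and for miR-16-5p (gained) in KIN microglia against astrocytes. Under it these log2 fold changes changed sign: for KIN against WT miR-15b-5p in microglia (-0.060) and miR-16-5p in neurons (-0.10); for neurons against astrocytes miR-16-5p and miR-195a-5p (0.90 and 0.36 in WT, 0.47 and 0.76 in KIN) and miR-15b-5p in KIN (2.51); for neurons against microglia miR-15b-5p (0.99 in WT, 1.38 in KIN) and miR-497a-5p (0.88 and 2.01); and for the KIN effect in neurons against astrocytes miR-15b-5p (0.0028), miR-195a-5p (0.41) and miR-497a-5p (0.47). On this denominator the KIN to WT ratio of the family sum in microglia was 1.01 in place of 1.40. That scaling also moved the share of calls that were higher from 21.9% to 1.20% of all features called for KIN astrocytes, from 32.6% to 6.17% for KIN microglia, and from 35.7% to 94.3% for WT neurons against astrocytes.

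Without the filter on low counts miR-15b-5p in WT neurons against astrocytes was at -0.077, and the KIN effects of miR-195a-5p and miR-497a-5p in neurons against astrocytes at 0.082 and 0.11. With library totals miR-497a-5p in KIN neurons against microglia was at 0.018. The KIN effect of miR-15b-5p in neurons against microglia, -0.11 as reported, was 0.10 with DESeq2 size factors, 0.29 with library totals, 0.61 with mature miRNA factors, 0.32 without the filter, 0.094 in DESeq2 and 0.26 in 1 fit of all 18 libraries, which also called 4 members for WT neurons against microglia in place of 2.

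With 1 library left out at a time, members called ranged from 0 to 5 for KIN against WT in astrocytes, from 0 to 1 in microglia, and from 0 to 2 for the KIN effect in microglia against astrocytes, with 2 without WT astrocyte replicate 2. Log2 fold changes that crossed 0 ranged from -0.10 to 0.91 (miR-15a-5p) and -0.17 to 0.22 (miR-16-5p) for KIN against WT in neurons, and from -0.23 to 0.60 for miR-15b-5p in WT neurons against astrocytes. KIN effects that did so were, in neurons against astrocytes, miR-195a-5p (-0.61 to 0.21) and miR-497a-5p (-0.63 to 0.35), and in neurons against microglia miR-15a-5p (-1.26 to 0.16) and miR-15b-5p (-0.42 to 0.64).

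With the replicate number as a block, members called numbered 3, 0 and 0 for KIN against WT in astrocytes, microglia and neurons and 5, 4 and 2 (WT) and 3, 4 and 4 (KIN) between fractions, so the block changed no count. Depth limits miR-497a-5p in neurons most, at 3 to 27 counts per library.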
